A study of Homo sapiens with 8 samples.

Results

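Transcripts of the MHC class II pathway and of CIITA, its transcriptional coactivator, were followed through ALKBH5 knockdown in leukaemia cell lines. The genes were chosen by name: 10 symbols were looked up among the 26830 gene symbols of the expression table, and 5 had a row, namely CIITA, CD74, HLA-DRB5, HLA-DQA1 and HLA-DMB. HLA-DRA, HLA-DRB1, HLA-DPA1, HLA-DPB1 and HLA-DMA had no row in the table used here and were not analysed here. The 5 genes were singled out because their values after knockdown had already been seen, so those values are given as a description, without a test.

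Polyadenylated RNA was sequenced in 8 libraries of NOMO-1 and MOLM-13, human acute myeloid leukaemia cell lines. The 4 groups held 2 libraries each: NOMO-1 with hairpin #1 against ALKBH5 (shALKBH5, replicates 2 and 3), NOMO-1 with the control hairpin (shNS, replicates 1 and 3), MOLM-13 shALKBH5 (replicates 1 and 3) and MOLM-13 shNS (replicates 1 and 3). All cells received their hairpin by lentivirus and were selected with puromycin; the labels' texts disagree on the length of selection and also mention an FTO virus and drugs, which no library is labelled with. The effects of lower ALKBH5 and of anything else the single hairpin does cannot be told apart, and no label says that the libraries of a group are separate cultures, so the p-values below speak of variation among these libraries, part or all of which may be technical.

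MHC class II molecules carry peptides from the endosomal pathway to the cell surface, where CD4 T cells read them. An alpha and a beta chain pair in the endoplasmic reticulum, the invariant chain CD74 fills their groove and escorts them to endosomes, cathepsins trim it away, and HLA-DM exchanges its last fragment for peptide while HLA-DO restrains HLA-DM. CIITA binds no DNA itself: it is recruited to the X and Y boxes of class II promoters by RFX, CREB and NF-Y, and monocytic cells raise it in response to interferon gamma. ALKBH5 removes the methyl group of N6-methyladenosine from RNA.

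The promoters of these genes are shown because the X and Y boxes are what the coactivator works through. RefSeq promoters (GRCh38.p14) matched 4 of the 5 genes, and HLA-DOB was added because it is the class II gene that fell in NOMO-1. Bases -200 to -49 before the RefSeq start are printed 5′ to 3′ on the strand of the gene, 152 bases each, with the letters of the X box core, CTGATGAT, and of the Y box, ATTGG, in capitals. A Y box that lies on the other strand reads CCAAT. They are the reference genome, not alleles of these lines, and the RefSeq starts of HLA-DQA1 and HLA-DOB lie inside the wider GENCODE genes whose coordinates are given below.
HLA-DRB5, chr6:32530336-32530487, strand -: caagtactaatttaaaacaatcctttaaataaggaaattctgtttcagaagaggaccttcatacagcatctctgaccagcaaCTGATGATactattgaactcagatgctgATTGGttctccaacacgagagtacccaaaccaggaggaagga
HLA-DMB, chr6:32941077-32941228, strand -: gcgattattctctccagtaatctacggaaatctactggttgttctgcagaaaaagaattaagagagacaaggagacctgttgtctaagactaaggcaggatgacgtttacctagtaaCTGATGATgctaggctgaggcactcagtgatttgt
HLA-DQA1, chr6:32637206-32637357, strand +: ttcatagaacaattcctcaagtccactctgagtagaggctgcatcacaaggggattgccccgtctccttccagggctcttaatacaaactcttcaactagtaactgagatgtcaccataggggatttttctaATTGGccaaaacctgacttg
CD74, chr5:150412959-150413110, strand -: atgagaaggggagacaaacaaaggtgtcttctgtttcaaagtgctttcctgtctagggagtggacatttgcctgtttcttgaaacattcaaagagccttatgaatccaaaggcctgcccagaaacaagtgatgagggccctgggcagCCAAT
HLA-DOB, chr6:32817051-32817202, strand -: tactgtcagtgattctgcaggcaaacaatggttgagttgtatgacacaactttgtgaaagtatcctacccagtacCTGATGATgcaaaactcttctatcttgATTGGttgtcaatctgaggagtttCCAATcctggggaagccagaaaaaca

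Both motifs were searched on both strands in all promoters of the table. In the printed genes no match to the X box core overlapped a match to the Y box. The Y box letters are short and occurred in 34.6% of 35116 promoters; the X box core, whose letters were chosen after reading these promoters, occurred in 0.681%, and both together in 0.242%. In HLA-DRB5 the X core lay 118 to 111 bases before the start and the Y box 90 to 86 bases before it. HLA-DOB, which behaved differently in the libraries, held the X core 125 to 118 bases and a Y box 98 to 94 bases before the start. In HLA-DMB the X core lay 83 to 76 bases upstream and the Y box letters 22 to 18 bases upstream, outside the printed bases. HLA-DQA1 and CD74 held Y box letters without these X core letters, which says only that the letters are not in the window.

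**Figure D1:**
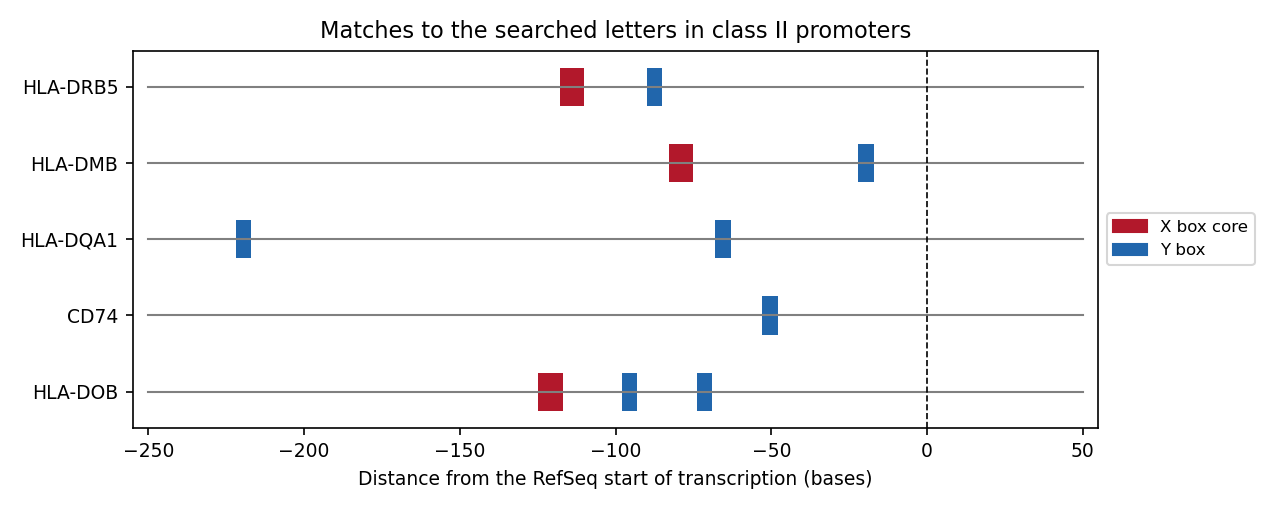
Matches to the searched letters in the promoters of 5 class II genes, by distance from the RefSeq start in bases (grey line: searched window; red: X box core; blue: Y box, either strand). HLA-DRB5, HLA-DMB and HLA-DOB hold both, HLA-DQA1 and CD74 the Y box letters only.

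ALKBH5 checked the labels. It stood at 15.1 and 14.2 TPM in NOMO-1 shALKBH5, against 70.4 and 71.8 TPM in NOMO-1 shNS, and at 9.45 and 7.35 TPM in MOLM-13 shALKBH5, against 45.7 and 45.8 TPM in MOLM-13 shNS. TPM is a gene's share of all transcripts in a library, scaled by gene length, so depth is unknown. MOLM-13 shALKBH5 was the group with the widest spread. For each of the 8803 genes that averaged 10 TPM or more, the log2(TPM + 1) difference between both libraries of a group was taken. The SD of these differences across genes was 0.526 in MOLM-13 shALKBH5, against 0.133 in MOLM-13 shNS. It was 0.184 in NOMO-1 shALKBH5, against 0.153 in NOMO-1 shNS. A shift shared by all genes does not enter this SD. The MOLM-13 levels of the class II genes are therefore given for each knockdown library.

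All 5 genes stood higher in the knockdown libraries, without overlap with the controls, in NOMO-1 and in MOLM-13. Among the 14302 genes that reached 1 TPM in 2 libraries or more, 52.1% were higher without overlap in NOMO-1, 21.3% in MOLM-13 and 15.5% in both lines; since the genes were picked for this pattern, nothing is read from their count. HLA-DQA1 reached the minimum only through its knockdown libraries. In these bulk libraries more cells with class II transcripts and more transcript per cell cannot be told apart. Fold ratios below are of group means in TPM, and differences are of mean log2(TPM + 1), shALKBH5 minus shNS, with the standard error of the limma fit.

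CIITA (chromosome 16, 10866222 to 10943021, GRCh38), the coactivator, stood at 12.3 and 13.1 TPM in NOMO-1 shALKBH5, against 6.37 and 6.76 TPM in NOMO-1 shNS. In MOLM-13 it stood at 17.1 and 9.19 TPM in shALKBH5, against 1.11 and 1.15 TPM in shNS. The knockdown libraries of the lines came to similar levels although the controls did not: CIITA averaged 12.7 ± 0.594 TPM in NOMO-1 shALKBH5 and 13.2 ± 5.60 TPM in MOLM-13 shALKBH5 (SD, n = 2 each). The ratio to the control mean was 1.94 in NOMO-1 and 11.6 in MOLM-13, a difference of 0.86 (SE 0.254) and 2.67 (SE 0.254) on the log2 scale.

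CD74 (chromosome 5, 150401637 to 150412929), the invariant chain, was the most abundant of the 5 genes in every library. It had 207.3 and 207.5 TPM in NOMO-1 shALKBH5, against 90.2 and 96.1 TPM in NOMO-1 shNS. In MOLM-13 it had 906 and 438 TPM in shALKBH5, against 187 and 192 TPM in shNS. The ratios were 2.23 in NOMO-1 and 3.55 in MOLM-13, where the knockdown libraries differed 2.07-fold between themselves, more than in NOMO-1 but less than either differed from its controls. In rank among all genes of its library, CD74 was 758th and 801st in NOMO-1 shALKBH5, against 1875th and 1763rd in NOMO-1 shNS, and 134th and 205th in MOLM-13 shALKBH5, against 608th and 594th in MOLM-13 shNS.

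HLA-DRB5 (chromosome 6, 32517343 to 32530287), a beta chain of HLA-DR, had 100.4 and 99.5 TPM in NOMO-1 shALKBH5, against 33.7 and 34.9 TPM in NOMO-1 shNS. In MOLM-13 it had 34.5 and 12.9 TPM in shALKBH5, against 1.37 and 0.92 TPM in shNS. It was thus near the floor in MOLM-13 controls and the ratio there, 20.7, rests on about 1 TPM; in NOMO-1 the ratio was 2.92. HLA-DRB genes are near copies that differ between haplotypes: 8.42% of the 50-base stretches of HLA-DRB5 transcripts are also in HLA-DRB1, which had no row, so that HLA-DRB5 values are uncertain. The sum of both HLA-DRB symbols with a row, HLA-DRB5 and HLA-DRB6, gave a log2 difference of 1.54 in NOMO-1 and 3.66 in MOLM-13, beside 1.52 and 3.38 for HLA-DRB5 alone.

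HLA-DQA1 (chromosome 6, 32628179 to 32647062), the alpha chain of HLA-DQ, was near 0 in the controls of both lines. It had 2.49 and 1.68 TPM in NOMO-1 shALKBH5, against 0.46 and 0.22 TPM in NOMO-1 shNS, and 28.4 and 2.59 TPM in MOLM-13 shALKBH5, against 0.47 and 0.17 TPM in MOLM-13 shNS. Of the 5 genes it depended most on 1 library: MOLM-13 shALKBH5 replicate 1 held 11.0 times the level of replicate 3. The log2 difference in MOLM-13 was 2.97, and it was 1.45 without replicate 1; in NOMO-1 it was 1.20 (SE 0.876).

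HLA-DMB (chromosome 6, 32934629 to 32941070), the beta chain of the peptide exchanger HLA-DM, had 8.84 and 8.99 TPM in NOMO-1 shALKBH5, against 3.63 and 2.19 TPM in NOMO-1 shNS. In MOLM-13 it had 12.9 and 6.45 TPM in shALKBH5, against 2.28 and 1.94 TPM in shNS. The ratios were 3.06 in NOMO-1 and 4.59 in MOLM-13.

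**Figure D2:**
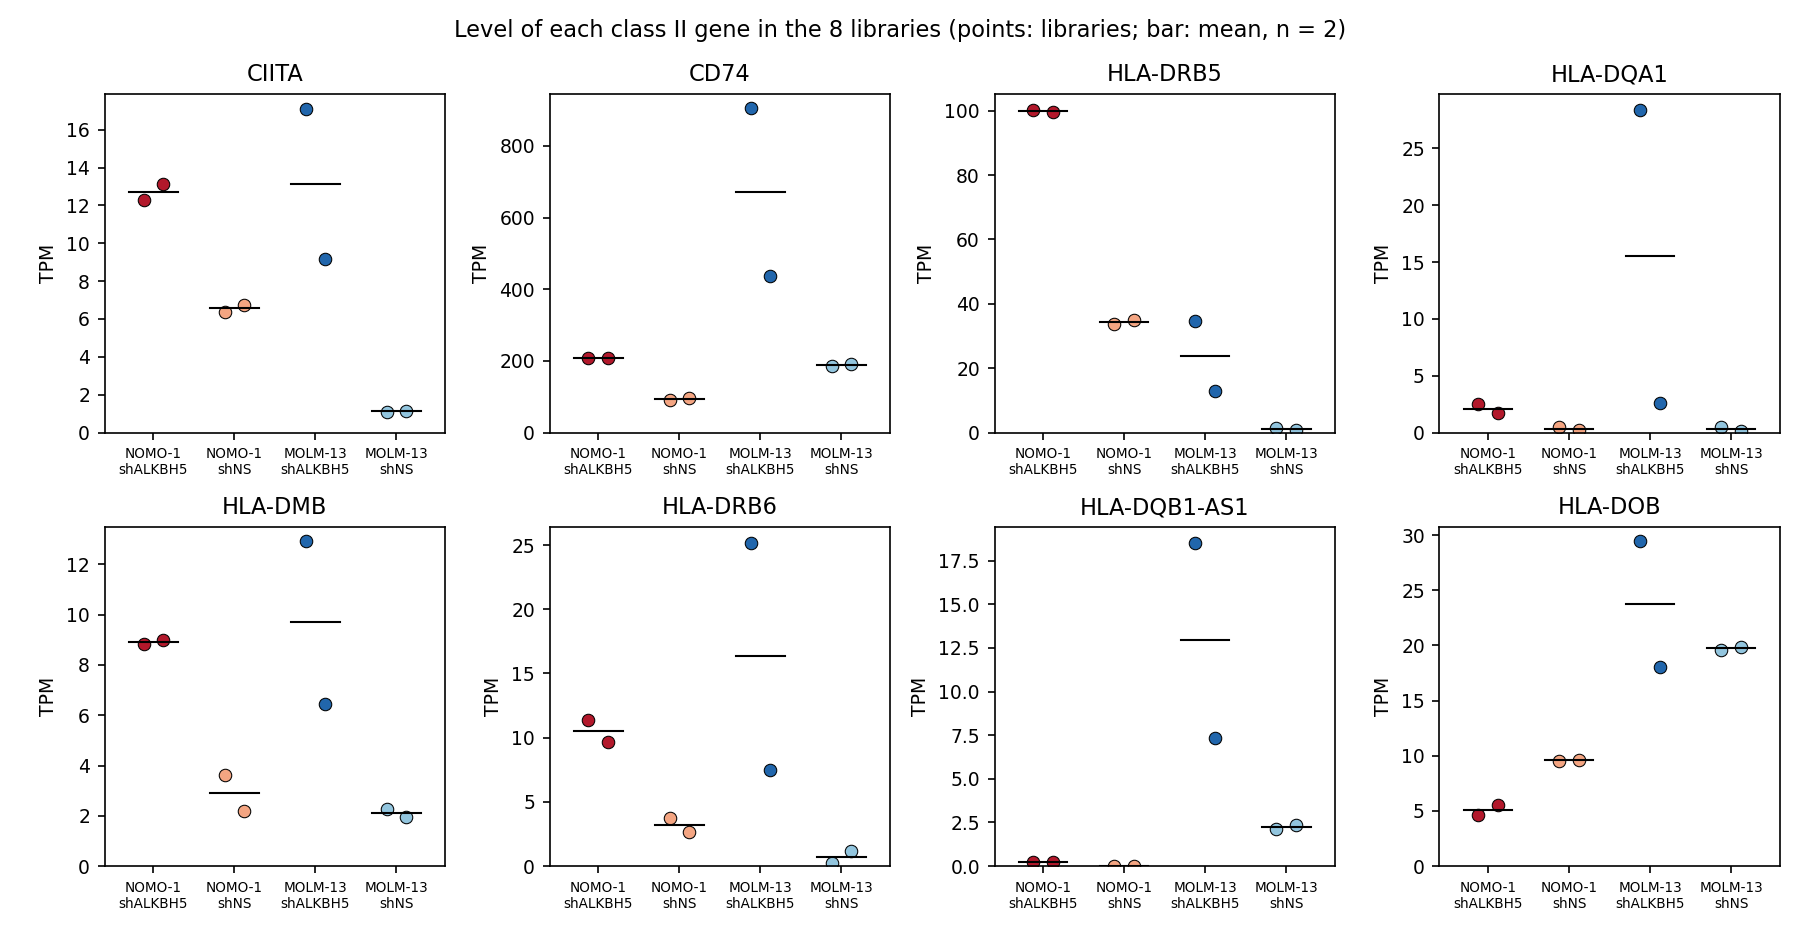
Level in TPM of the 5 genes and of 3 further class II genes with a row in the 8 libraries (points: libraries; bar: mean, n = 2; linear axes from 0, a scale for each gene). The 5 genes stand higher in both knockdown groups, while HLA-DOB is lower in NOMO-1 shALKBH5 and overlaps in MOLM-13.

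In the fit over all genes, limma on log2(TPM + 1) with Benjamini-Hochberg adjustment and a threshold of 0.05, 4 of the 5 genes were past the threshold upward in NOMO-1, where 28.6% of all genes were, and 5 of 5 in MOLM-13, where 10.6% were; HLA-DQA1 was the exception in NOMO-1. The genes were chosen on this contrast, so these counts are no test. The median log2 difference of the 5 genes was 1.20 in NOMO-1, beside 0.16 for all genes, and 2.67 in MOLM-13, beside -0.18 for all genes. Scaling by median-of-ratios, which moved the median of all genes by -0.16 in NOMO-1 and 0.21 in MOLM-13, left CIITA at 0.65 and 2.99.

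The genes did not keep their proportions. For each HLA-DRB5 transcript there were 2.06 and 2.08 CD74 transcripts in NOMO-1 shALKBH5, against 2.68 and 2.76 in NOMO-1 shNS. In MOLM-13 the same ratio was 26.2 and 34.0 in shALKBH5, against 136 and 208 in shNS. CD74 per CIITA transcript was 52.9 and 47.7 in MOLM-13 shALKBH5, against 168 and 167 in MOLM-13 shNS, and 16.9 and 15.8 in NOMO-1 shALKBH5, against 14.2 and 14.2 in NOMO-1 shNS. CIITA and HLA-DRB5 were thus further above their controls than CD74 in both MOLM-13 libraries. These ratios are between length-scaled levels.

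Of 13 other MHC class II symbols, 3 had a row. HLA-DRB6 (chromosome 6, 32552713 to 32560022), a transcribed pseudogene beside HLA-DRB5, had 25.2 and 7.49 TPM in MOLM-13 shALKBH5, against 0.26 and 1.19 TPM in MOLM-13 shNS. It rose by 3.17 (SE 0.532, limma adjusted p = 0.0053), a call that held in all 15 alternatives; in NOMO-1 it had 11.4 and 9.69 TPM in shALKBH5, against 3.71 and 2.65 TPM in shNS, without passing (1.47, adjusted p = 0.066). Its values share the uncertainty of HLA-DRB5, with which it shares 1.57% of the 50-base stretches of HLA-DRB5.

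HLA-DQB1-AS1 (chromosome 6, 32659880 to 32660729), antisense to the HLA-DQ beta chain gene, had 18.5 and 7.36 TPM in MOLM-13 shALKBH5, against 2.10 and 2.35 TPM in MOLM-13 shNS. It rose there by 1.99 (SE 0.359, limma adjusted p = 0.0069), although the adjusted p came to 0.0501 when MOLM-13 shNS replicate 1 was left out. In NOMO-1 it had 0.22 and 0.22 TPM in shALKBH5 and was listed at 0 in both shNS libraries. With no row for HLA-DQB1 and the use of strand in counting not given in the sources used here, reads from the sense gene and from its antisense partner cannot be told apart.

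HLA-DOB (chromosome 6, 32812763 to 32820466), the beta chain of HLA-DO, went the other way in NOMO-1, with 4.63 and 5.53 TPM in shALKBH5, against 9.55 and 9.60 TPM in shNS. It fell by 0.80 (SE 0.22, limma adjusted p = 0.027). In MOLM-13 it had 29.5 and 18.0 TPM in shALKBH5, against 19.6 and 19.9 TPM in shNS, and the groups overlapped (0.22, adjusted p = 0.47). The difference between the lines was -1.02 (SE 0.311, limma adjusted p = 0.047). Both calls were lost without any of the 4 NOMO-1 libraries or either MOLM-13 shNS library, with adjusted p up to 0.145 and 0.142.

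The MOLM-13 shALKBH5 libraries differed in size for each of the 5 genes and in direction for the medians of the interferon lists. Replicate 1 over replicate 3 was 1.86 for CIITA, 2.07 for CD74, 2.68 for HLA-DRB5, 11.0 for HLA-DQA1 and 2.01 for HLA-DMB. Against the control mean, CIITA was 15.1-fold higher in replicate 1 and 8.13-fold higher in replicate 3, and HLA-DRB5 30.2-fold and 11.3-fold. Replicate 3 alone thus still stood above both controls for all 5 genes, from 2.31-fold for CD74 to 11.3-fold for HLA-DRB5.

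Type I interferon-stimulated genes differed widely between the MOLM-13 shALKBH5 libraries. In MOLM-13 shALKBH5, replicate 1 had a median log2 difference from the controls of 3.80 over these genes and replicate 3 one of -0.88, beside -0.06 and -0.33 for all genes. Of 15 such genes tested, 15 were above both controls in replicate 1 and 3 in replicate 3, beside 5671 and 3747 of all 14302 genes. The level summed over 17 genes of the list was 186 to 1913 TPM in MOLM-13 shALKBH5, against 192 to 202 TPM in MOLM-13 shNS, and 834 to 842 TPM in NOMO-1 shALKBH5, against 611 to 642 TPM in NOMO-1 shNS. In MOLM-13 shALKBH5 replicate 3 the 5 class II genes were above both controls, and most of the interferon-stimulated genes tested were not. ISG15, STAT2 and BST2 were the 3 above both controls there. The 5 genes were further above the controls in replicate 1. The part of interferon in the class II levels was not tested.

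The interferon gamma pathway differed less between these libraries: its median log2 difference was 1.11 in replicate 1 and -0.17 in replicate 3, which is above the -0.33 of all genes in replicate 3. IFNG, the ligand, was listed at 0 in all 8 libraries. GBP1, a guanylate-binding protein, had 2.61 and 0 TPM in MOLM-13 shALKBH5 (replicates 1 and 3) and was listed at 0 in both MOLM-13 shNS libraries. IRF1, an interferon regulatory factor, had 28.0 and 13.7 TPM in MOLM-13 shALKBH5, against 11.1 and 11.5 TPM in MOLM-13 shNS, and GBP2, a relative of GBP1, had 27.2 and 15.9 TPM in MOLM-13 shALKBH5, against 8.04 and 7.02 TPM in MOLM-13 shNS. Both stood above the controls in each of the MOLM-13 knockdown libraries. The summed level of the list was 426 to 1147 TPM in MOLM-13 shALKBH5, against 540 to 557 TPM in MOLM-13 shNS, and 574 to 598 TPM in NOMO-1 shALKBH5, against 432 to 438 TPM in NOMO-1 shNS.

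**Figure D3:**
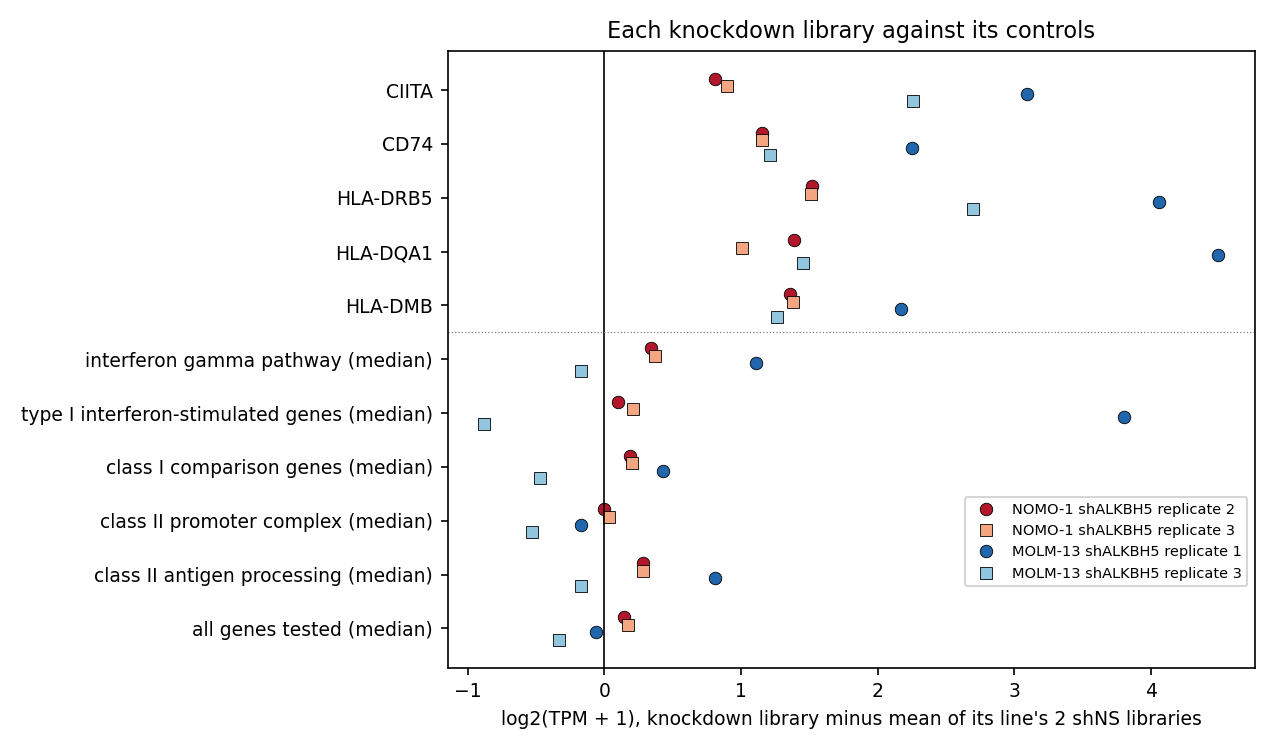
Each knockdown library minus the mean of its line's shNS libraries, on the log2(TPM + 1) scale, for the 5 class II genes and for the medians of 5 lists and of all genes. MOLM-13 shALKBH5 replicate 3 stands right of 0 for all 5 genes and left of 0 for the interferon lists, and the NOMO-1 libraries lie close together.

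Markers of other immune cells were low, and their sums rested on few genes. MS4A1, which defines B cells, was listed at 0 in all 8 libraries, and the 7 B cell markers summed to 5.48 to 5.68 TPM in NOMO-1 shALKBH5, against 8.37 to 8.73 TPM in NOMO-1 shNS, and to 12.6 to 18.1 TPM in MOLM-13 shALKBH5, against 34.6 to 35.9 TPM in MOLM-13 shNS. In MOLM-13 most of that sum was BANK1, a B cell scaffold protein, with 11.2 and 8.29 TPM in shALKBH5, against 27.0 and 27.9 TPM in shNS (-1.42, limma adjusted p = 0.0011).

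The 10 dendritic cell markers summed to 9.04 to 11.6 TPM in NOMO-1 shALKBH5, against 26.8 to 28.7 TPM in NOMO-1 shNS, and to 10.3 to 23.2 TPM in MOLM-13 shALKBH5, against 14.8 TPM in both MOLM-13 shNS libraries. The NOMO-1 sum was mostly BATF3, a transcription factor, with 6.80 and 10.5 TPM in shALKBH5, against 26.3 and 28.0 TPM in shNS (-1.57, limma adjusted p = 0.0014). XCR1 and CCR7, chemokine receptors, went the other way there at low levels. XCR1 had 1.18 and 0.54 TPM in NOMO-1 shALKBH5, against 0.19 and 0.09 TPM in NOMO-1 shNS. CCR7 had 0.37 and 0.16 TPM in NOMO-1 shALKBH5, against 0.05 and 0.05 TPM in NOMO-1 shNS. In MOLM-13 shALKBH5 replicate 1 the sum was shared by CCR7, BATF3 and CLEC10A, at 6.89, 6.87 and 6.80 TPM. CCR7 had 0.21 TPM in MOLM-13 shALKBH5 replicate 3, and 0.21 and 0.40 TPM in MOLM-13 shNS. Of the T cell markers, 4 of 5 had a row and summed to 7.23 to 8.63 TPM in NOMO-1 shALKBH5, against 2.53 to 2.92 TPM in NOMO-1 shNS, and to at most 0.44 TPM in MOLM-13. That NOMO-1 sum was CD2, which rose by 1.32 (adjusted p = 0.0013), while the CD3 chains CD3D, CD3E and CD3G were at most 0.17 TPM in NOMO-1.

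Of 6 markers of monocytes and macrophages tested, 3 rose and 1 fell in NOMO-1, and 2 rose and 1 fell in MOLM-13. Of all genes, 28.6% rose and 15.0% fell in NOMO-1, and 10.6% rose and 31.2% fell in MOLM-13. Nothing is read from the marker counts. LYZ, lysozyme, had 1532 and 1507 TPM in NOMO-1 shALKBH5, against 463 and 499.9 TPM in NOMO-1 shNS (1.66, limma adjusted p = 0.0017), and 19263 and 12121 TPM in MOLM-13 shALKBH5, against 9126 and 8493 TPM in MOLM-13 shNS (0.80, adjusted p = 0.024). CD68, a macrophage lysosomal protein, had 1054 and 1002 TPM in NOMO-1 shALKBH5, against 326 and 320.4 TPM in NOMO-1 shNS (1.67, adjusted p = 0.00032), and 255 and 297 TPM in MOLM-13 shALKBH5, against 146 and 145 TPM in MOLM-13 shNS (0.92, adjusted p = 0.0012). Together these made up nearly all of the sum over 8 markers, 2536 to 2611 TPM in NOMO-1 shALKBH5, against 814 to 844 TPM in NOMO-1 shNS, and 12496 to 19658 TPM in MOLM-13 shALKBH5, against 8720 to 9351 TPM in MOLM-13 shNS. CSF1R, a growth factor receptor, rose by 1.02 (adjusted p = 0.031) in NOMO-1, while the Fc receptor FCGR1A fell by 0.34 (adjusted p = 0.025) there and the integrin ITGAM fell by 0.59 (adjusted p = 0.048) in MOLM-13. CSF1R had 83.01 and 42.11 TPM in MOLM-13 shALKBH5, against 32.35 and 34.37 TPM in MOLM-13 shNS, without passing (0.81, limma adjusted p = 0.0675). CD14 had 0.15 and 0.15 TPM in NOMO-1 shALKBH5, against 0.30 and 0.44 TPM in NOMO-1 shNS, and did not pass. In MOLM-13 CD14 stood on both sides of its controls, with 16.32 and 0.98 TPM in shALKBH5, against 3.28 and 3.31 TPM in shNS, and did not pass.

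The 6 leukaemic blast markers summed to 447 to 451 TPM in NOMO-1 shALKBH5, against 496 to 499 TPM in NOMO-1 shNS, and to 782 to 922 TPM in MOLM-13 shALKBH5, against 1055 to 1156 TPM in MOLM-13 shNS, again with members on both sides. In NOMO-1 CSF3R rose by 0.76 (limma adjusted p = 0.0014), and CD33 and CEBPA fell by 0.29 (adjusted p = 0.042) and 0.32 (adjusted p = 0.022). In MOLM-13 MPO, myeloperoxidase, had 19.3 and 16.4 TPM in shALKBH5, against 384 and 457 TPM in shNS (-4.48, adjusted p = 0.00011). CD33 rose by 0.46 there (adjusted p = 0.0094). KIT had 0.6 and 0.22 TPM in MOLM-13 shALKBH5, against 1.54 and 1.21 TPM in MOLM-13 shNS (-0.76, adjusted p = 0.011). It reached the minimum of 1 TPM only through those control libraries, so nothing is read from its call. The NOMO-1 calls of CSF1R, FCGR1A, CD33 and CEBPA were lost without any NOMO-1 library or either MOLM-13 shNS library (adjusted p up to 0.197), ITGAM also without MOLM-13 shALKBH5 replicate 3 (up to 0.183), LYZ in MOLM-13 without any shNS library of either line (up to 0.12) and CD33 in MOLM-13 without MOLM-13 shNS replicate 1 (0.0842). The part of these markers in the class II levels was not tested.

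The lines were compared through the difference of their knockdown effects, NOMO-1 minus MOLM-13, which for the 5 genes is a description because it rests on the same contrasts. It was -1.81 (SE 0.359) for CIITA, -1.86 (SE 0.567) for HLA-DRB5 and -1.77 (SE 1.24) for HLA-DQA1, beside a median of 0.42 over all genes. For CD74 it was -0.58 (SE 0.432) and for HLA-DMB -0.35 (SE 0.444). The last 3, HLA-DQA1, CD74 and HLA-DMB, lay within 2 standard errors of 0. Without MOLM-13 shALKBH5 replicate 1 the differences were -1.40 for CIITA, -1.19 for HLA-DRB5, -0.26 for HLA-DQA1, -0.06 for CD74 and 0.10 for HLA-DMB.

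The starting levels of the lines differed gene by gene. CIITA averaged 6.57 ± 0.276 TPM in NOMO-1 shNS and 1.13 ± 0.0283 TPM in MOLM-13 shNS (SD, n = 2 each), 5.81-fold higher in NOMO-1. HLA-DRB5 averaged 34.3 ± 0.813 TPM in NOMO-1 shNS and 1.15 ± 0.318 TPM in MOLM-13 shNS, 29.9-fold higher in NOMO-1. CD74 went against both, with 93.1 ± 4.16 TPM in NOMO-1 shNS and 189 ± 3.49 TPM in MOLM-13 shNS, a ratio of 0.492. HLA-DMB and HLA-DQA1 overlapped between the control groups. MOLM-13 controls thus held less CIITA and HLA-DRB5 but more CD74 than NOMO-1 controls. For scale, 57.9% of all genes were higher without overlap in NOMO-1 controls and 31.6% lower.

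The pathway around the genes was described by lists, whose counts are to be read beside those of all genes: 28.6% of all genes rose and 15.0% fell in NOMO-1, and 10.6% rose and 31.2% fell in MOLM-13. For the difference between the lines, 29.7% were past the threshold upward and 4.9% downward. Nothing is read from these counts about a list as a whole. Of the 12 genes of the class II promoter complex, all measured, 1 rose and 3 fell in NOMO-1, and 1 rose and 5 fell in MOLM-13. RFXAP, a subunit of RFX, fell by 0.64 (limma adjusted p = 0.035) in NOMO-1 and 1.05 (adjusted p = 0.0066) in MOLM-13. NFYB, a subunit of NF-Y, fell by 1.43 (adjusted p = 0.005) in MOLM-13, as did NFYA by 0.36 (adjusted p = 0.022). KAT2B, an acetyltransferase, fell by 0.45 (adjusted p = 0.029) in NOMO-1 and 1.18 (adjusted p = 0.0011) in MOLM-13. The chromatin remodeller SMARCA4 fell by 0.59 (adjusted p = 0.0069) in NOMO-1 and the acetyltransferase CREBBP by 0.44 (adjusted p = 0.041) in MOLM-13. CARM1, an arginine methyltransferase, rose by 0.47 (adjusted p = 0.027) in NOMO-1 and 0.53 (adjusted p = 0.019) in MOLM-13. RFX5, the DNA-binding RFX subunit, stood at 42.9 and 48.3 TPM in NOMO-1 shALKBH5, against 50.6 and 51.0 TPM in NOMO-1 shNS, and at 80.9 and 62.8 TPM in MOLM-13 shALKBH5, against 59.8 and 59.9 TPM in MOLM-13 shNS, and did not pass in either line. The median log2 difference of the 12 genes was 0.02 in NOMO-1, beside 0.16 for all genes, and -0.40 in MOLM-13, beside -0.18 for all genes. With median-of-ratios scaling, 2 of the complex rose and 6 fell in NOMO-1, and 3 rose and 3 fell in MOLM-13, so the balance in MOLM-13 depends on the scaling.

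Of 12 regulators of CIITA, 10 were tested. None passed upward in NOMO-1 by limma's adjusted p or at an unadjusted p under 0.05, and 1 fell. Of all genes 28.6% rose and 15.0% fell there. In MOLM-13 1 rose and 2 fell, beside 10.6% and 31.2%. In NOMO-1 shALKBH5, 3 of the 10 (replicate 2) and 4 (replicate 3) were above both controls, beside 7899 and 8293 of 14302 genes. PRDM1 had 19.4 and 15.2 TPM in NOMO-1 shALKBH5, against 6.83 and 6.76 TPM in NOMO-1 shNS, without passing (1.22, SE 0.716). That SE is pooled with MOLM-13, where PRDM1 had 16.2 and 2.05 TPM in shALKBH5, against 9.57 and 8.73 TPM in shNS. FOXO1, a forkhead factor, fell by 0.75 (adjusted p = 0.0024) in NOMO-1 and 1.03 (adjusted p = 0.00096) in MOLM-13. STAT5A rose by 0.96 (adjusted p = 0.00072) in MOLM-13, with 20.5 and 20.2 TPM in shALKBH5, against 10.1 and 9.96 TPM in shNS, and its relative STAT5B fell by 0.58 (adjusted p = 0.023). SPI1, the myeloid factor PU.1, had 127 and 120.2 TPM in NOMO-1 shALKBH5, against 129.8 and 129.2 TPM in NOMO-1 shNS, and 377 and 245 TPM in MOLM-13 shALKBH5, against 216 and 224 TPM in MOLM-13 shNS, without passing (adjusted p = 0.82 and 0.098).

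Of 15 names for class II antigen processing, 12 had a row and 10 were tested: 1 rose and 0 fell in NOMO-1 (2 and 0 at an unadjusted p under 0.05), and 3 rose and 2 fell in MOLM-13, beside 28.6% and 15.0% of all genes in NOMO-1 and 10.6% and 31.2% in MOLM-13. CTSD, cathepsin D, had 8122 and 7958 TPM in NOMO-1 shALKBH5, against 4028 and 4117 TPM in NOMO-1 shNS, and 317 and 186 TPM in MOLM-13 shALKBH5, against 67.9 and 69.7 TPM in MOLM-13 shNS. It rose by 0.98 (limma adjusted p = 0.016) and 1.80 (adjusted p = 0.002). In MOLM-13 the cathepsins CTSL and CTSZ rose by 0.85 (adjusted p = 0.035) and 0.87 (adjusted p = 0.024), while the ubiquitin ligases MARCH1 and MARCH8, which remove class II molecules from the surface, fell by 0.85 (adjusted p = 0.048) and 0.93 (adjusted p = 0.0025). CTSS, cathepsin S, the protease that frees the groove from CD74, had 50.3 and 53.7 TPM in NOMO-1 shALKBH5, against 70.1 and 72.7 TPM in NOMO-1 shNS, and 84.1 and 50.2 TPM in MOLM-13 shALKBH5, against 96.3 and 94.5 TPM in MOLM-13 shNS, and did not pass (adjusted p = 0.15 and 0.096).

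Of 10 costimulatory ligands, 7 were tested: 1 rose and 1 fell in NOMO-1, and 0 rose and 1 fell in MOLM-13 (0 and 2 at an unadjusted p under 0.05), beside 28.6% and 15.0% of all genes in NOMO-1 and 10.6% and 31.2% in MOLM-13. PDCD1LG2, the PD-L2 ligand, had 1.20 and 1.38 TPM in NOMO-1 shALKBH5, against 0.24 and 0.46 TPM in NOMO-1 shNS (0.77, limma adjusted p = 0.028). It reached the minimum of 1 TPM only through those knockdown libraries, so nothing is read from its call. At a pseudocount of 0.1 its adjusted p was 0.155. TNFSF4, the OX40 ligand, fell by 0.62 (adjusted p = 0.0073) in NOMO-1 and 0.38 (adjusted p = 0.044) in MOLM-13. CD40 was seen in MOLM-13 shALKBH5 replicate 1 at 11.2 TPM and was at most 0.16 TPM in the other 7 libraries.

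The list of the CD74 ligand, its partners and class II receptors had 5 genes tested, of which 1 rose and 1 fell in NOMO-1 and 1 rose and 0 fell in MOLM-13 (1 and 1 at an unadjusted p under 0.05), beside the same shares of all genes. MIF, the cytokine that binds CD74, had 113 and 121 TPM in NOMO-1 shALKBH5, against 315 and 301 TPM in NOMO-1 shNS. It fell by 1.39 (limma adjusted p = 0.00035), while CD74 stood higher in the same libraries. In MOLM-13 it had 248 and 262 TPM in shALKBH5, against 296 and 325 TPM in shNS (-0.28, adjusted p = 0.051). CXCR2, a coreceptor for MIF, rose by 0.49 (adjusted p = 0.025) in NOMO-1, and CXCR4, another, rose by 0.89 (adjusted p = 0.0051) in MOLM-13.

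In the interferon gamma list, 10 tested of 17, 3 rose and 1 fell in NOMO-1 and 1 rose and 1 fell in MOLM-13, beside the same shares of all genes. The receptor chain IFNGR1 rose by 0.82 (limma adjusted p = 0.021), its kinase JAK2 by 1.17 (adjusted p = 0.013) and WARS, an interferon-induced tRNA synthetase, by 1.29 (adjusted p = 0.013) in NOMO-1. JAK1, the partner kinase, fell by 0.62 (adjusted p = 0.0496) in NOMO-1 and 1.01 (adjusted p = 0.01) in MOLM-13, and GBP2 rose by 1.36 (adjusted p = 0.006) in MOLM-13. Of the 15 type I interferon-stimulated genes tested, limma called 1 in NOMO-1, upward, the transcription factor STAT2 (1.98, adjusted p = 0.017). In MOLM-13 it called 0 (1 at an unadjusted p under 0.05). The spread is pooled over groups, so the wide MOLM-13 shALKBH5 libraries enter the SE in NOMO-1. USP18 had 18.1 and 18.5 TPM in NOMO-1 shALKBH5, against 4.3 and 4.3 TPM in NOMO-1 shNS, without passing (1.86, SE 1.09). OAS3 stood lower, with 11.16 and 12.15 TPM against 28.16 and 29.15 TPM (-1.23, SE 1.54). In each NOMO-1 knockdown library 8 of the 15 were above both controls, beside 7899 and 8293 of 14302 genes. Of 4 class I genes tested, 0 passed in NOMO-1, adjusted or not, and 1 rose in MOLM-13, the peptide transporter TAP1 (1.26, adjusted p = 0.046).

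These list calls rested on few libraries. Of 16 in NOMO-1, 14 were lost when 1 library was left out, with adjusted p up to 0.215, and MIF and FOXO1 held. Leaving out a NOMO-1 shALKBH5 library lost 12 (replicate 2) or 11 (replicate 3), leaving out either NOMO-1 shNS library lost 13, and leaving out either MOLM-13 shNS library lost 7. Of 21 in MOLM-13, 12 were lost without MOLM-13 shNS replicate 1, among them 10 also lost without MOLM-13 shNS replicate 3, and 5 to 8 of them without a NOMO-1 library, with adjusted p up to 0.192. Without MOLM-13 shALKBH5 replicate 1, 1 was lost. CTSD, CXCR4, FOXO1, GBP2, HLA-DRB6, KAT2B, MARCH8, NFYB and STAT5A held in MOLM-13 whichever library was left out.

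**Figure D4:**
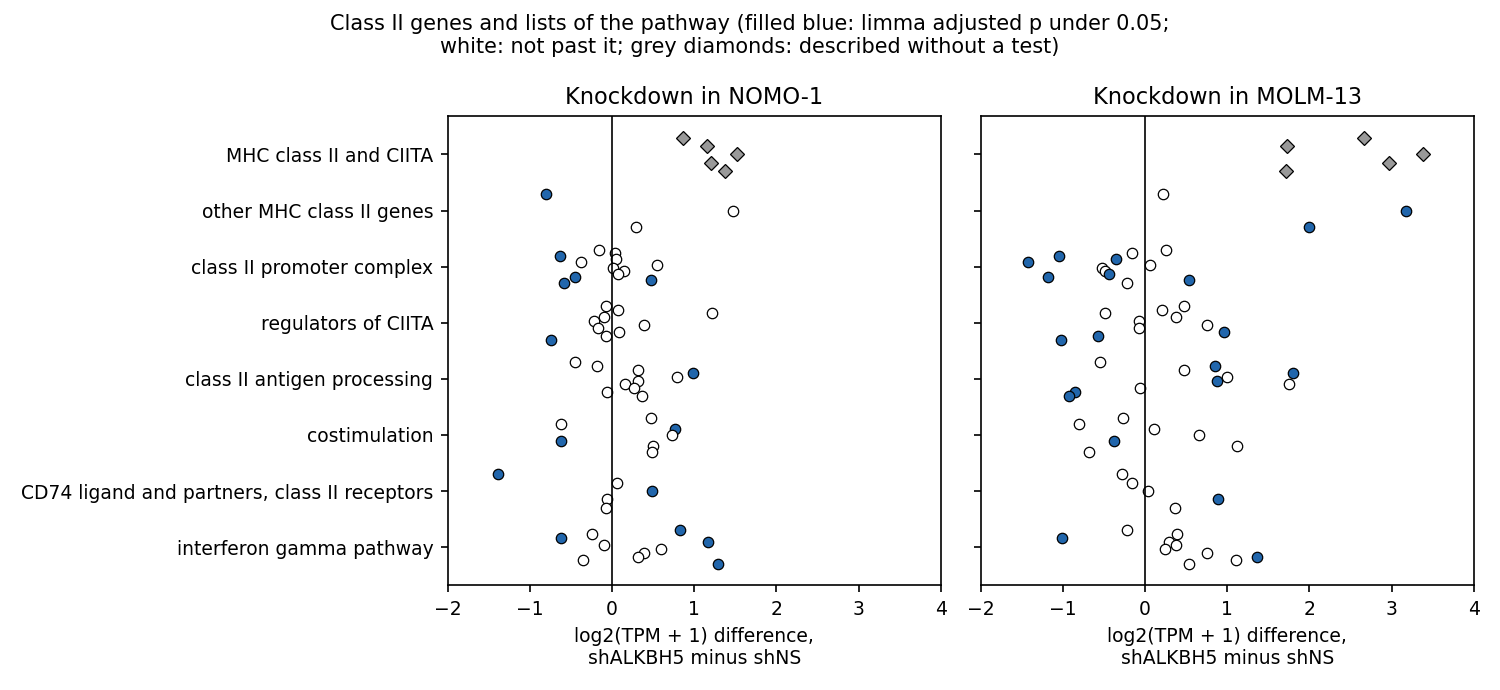
Difference of mean log2(TPM + 1), shALKBH5 minus shNS, in each line for the 5 class II genes (grey diamonds, no test) and 7 lists (points: genes; blue: limma adjusted p under 0.05; white: not past it). The diamonds lie from 0.86 to 1.52 in NOMO-1 and from 1.71 to 3.38 in MOLM-13, while the lists spread on both sides of 0.

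Likeness to the CIITA pattern was measured over the 8 libraries as the mean absolute difference of log2(TPM + 1) after centring each gene, among 11542 genes with a range of at least 1. ADCY4, an adenylyl cyclase, was nearest at 0.302, followed by the small GTPase ARL2 at 0.31, the complement regulator CFP at 0.348, the lysosomal precursor PSAP at 0.35 and the noncoding RNA NEAT1 at 0.37. PSAP had 1331 and 1281 TPM in NOMO-1 shALKBH5, against 541 and 542 TPM in NOMO-1 shNS, and 1838 and 809 TPM in MOLM-13 shALKBH5, against 343 and 335 TPM in MOLM-13 shNS, lowest in the MOLM-13 controls as CIITA was. Class II genes were spread over the order: HLA-DRB6 was 7th at 0.384 and HLA-DMB 25th at 0.436, but HLA-DQA1 was 3609th at 0.907, HLA-DRB5 6352nd at 1.10 and CD74 6575th at 1.11. CD74 lies far because its controls were higher in MOLM-13 than in NOMO-1, the reverse of CIITA.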

How the data were processed

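Gene levels were taken from the authors' deposited table of TPM for 8 libraries. That the values are TPM was taken from their sums, 1000000 in each library within rounding. STAR, RSEM and GRCh38 were used, per the submitters' processing notes; their versions, the annotation and whether strand was used were not given in the sources used here. Depth cannot be had from TPM, so counting intervals are left out, and as a share TPM falls where other transcripts rise. An exact 0 can be a failed estimate.

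The 14302 genes that reached 1 TPM in 2 libraries or more were fitted with limma 3.58.1 (R 4.3.3) on log2(TPM + 1), a pseudocount of 1, with a mean for each of the 4 groups, two-sided tests moderated along an intensity trend, p-values adjusted by Benjamini-Hochberg across the table and a threshold of 0.05. There were 4 residual and 2.29 prior degrees of freedom, and the spread was pooled over groups, although MOLM-13 shALKBH5 varied most. Fold differences on this scale understate changes of low genes. A count test planned for counts was not used.

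The genes and lists (other class II genes, promoter complex, regulators of CIITA, antigen processing, costimulation, CD74 partners, interferon gamma, type I interferon and class I genes, and markers of 5 cell types) were chosen with earlier results of these data known. Named list genes are those past the threshold, plus genes set beside a class II result. CTSS, RFX5, SPI1, PRDM1, CD40 and CLEC10A were named after their values were seen. Values of a few further list genes are not reported here. Nearest genes to HLA-DRA were planned and not made, as it has no row. Coordinates are of GENCODE 29, promoters of RefSeq. Alternatives were another pseudocount, filters, median-of-ratios scaling, each line alone, no trend, a replicate block and each library left out.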

Additional observations from a re-analysis of the deposited data

Results flagged for a closer look

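The knockdown effect of 8 of 74 tested genes of the pathway lists, or 10.8%, differed between the lines, as NOMO-1 minus MOLM-13 on the log2(TPM + 1) scale, by limma's test of the difference itself; of all genes 34.6% did. The effect was lower in NOMO-1 for HLA-DOB (-1.02, adjusted p = 0.047), HLA-DQB1-AS1 (-1.70, adjusted p = 0.044), STAT5A (-0.88, adjusted p = 0.0055), MIF (-1.11, adjusted p = 0.0036) and CXCR4 (-0.96, adjusted p = 0.018). It was higher in NOMO-1 for KAT2B (0.73, adjusted p = 0.025), MARCH8 (1.29, adjusted p = 0.0052) and IFNGR1 (1.04, adjusted p = 0.038). MARCH8 had 20.0 and 23.1 TPM in NOMO-1 shALKBH5, against 16.1 and 17.0 TPM in NOMO-1 shNS, and 5.85 and 4.97 TPM in MOLM-13 shALKBH5, against 10.6 and 11.8 TPM in MOLM-13 shNS, where MARCH8 fell; in NOMO-1 it did not pass (0.36, adjusted p = 0.061).

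The calls for STAT5A, MARCH8 and MIF held whichever library was left out. The other 5 were each lost without any of the 4 NOMO-1 libraries and without either MOLM-13 shNS library, with adjusted p up to 0.142. HLA-DQB1-AS1, listed at 0 in both NOMO-1 shNS libraries, depended most on the pseudocount: at 0.1 its difference was -0.66 (adjusted p = 0.428). The median difference over all genes was 0.42, and median-of-ratios scaling moved it by -0.43.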

How the results depend on the processing

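Each of the 5 class II genes stood higher in the knockdown under each of the 15 alternatives that gave it a value, in both lines; the filter at 5 TPM removed HLA-DQA1. The log2 difference ranged from 0.65 to 0.94 for CIITA, 0.93 to 1.19 for CD74, 1.30 to 1.54 for HLA-DRB5, 0.98 to 2.34 for HLA-DQA1 and 1.10 to 1.64 for HLA-DMB in NOMO-1, and from 2.26 to 3.36, 1.21 to 2.25, 2.70 to 4.12, 1.45 to 4.49 and 1.26 to 2.17 in MOLM-13. The difference between the lines changed sign for HLA-DMB alone, -0.86 to 0.10. Of 45 calls of list genes, 31 were lost in at least 1 alternative and 14 held in all. Fitted alone, NOMO-1 passed 9418 genes in place of 6242 and MOLM-13 2593 in place of 5972. Leaving out 1 library gave 3244 to 9755 genes in NOMO-1, 2631 to 9389 in MOLM-13, 1586 to 9638 for their difference (4946 with all) and 6411 to 11183 between the controls (8556 with all). Median-of-ratios scaling changed the split of higher against lower calls to 3316 against 3696 (from 4097 against 2145) in NOMO-1, 3483 against 3786 (from 1513 against 4459) in MOLM-13, 2633 against 2462 (from 4245 against 701) for the difference and 4849 against 4555 (from 5812 against 2744) between the controls; the cause was not tested. With a replicate block for MOLM-13 the counts were 6699, 6534, 5661 and 9049; deviations of same-numbered libraries correlated at 0.0606 over genes, with 2 pairs, so the numbers are not shown to pair libraries, and the NOMO-1 groups share 1 number. Depth cannot be had from TPM, and HLA-DQA1 and the MOLM-13 controls of HLA-DRB5 lie near 1 TPM or below, where ratios are least certain.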
